A study of Mus musculus with 4 samples.

Results

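The neuronal cytoskeleton genes described here were 10 genes chosen by name, of 21938 annotated protein-coding genes: Nefl, Nefm, Nefh, Ina, Map2, Map1a, Map1b, Tubb3, Stmn2 and Gap43. What was measured at them was trimethylation of lysine 4 of histone H3 (H3K4me3), by chromatin immunoprecipitation and sequencing of left cerebral cortex. The mice were 2-month-old B6CASTF1/J females, hybrids between the C57BL/6J and CAST/EiJ strains, and the labels named no treatment. Pool I (biological replicate 2) and pool J (biological replicate 1) each combined 4 cortex biosamples and gave 2 technical libraries, 4 libraries in all. The peak lists did not separate the parental alleles, and the tissue was not sorted into cell types. Each pool had 1 peak list over both of its libraries, and a further list, termed replicated by the authors, was called on both pools. Of the 25446 peaks of the replicated list, 24595 were identical to a peak called on the pooled reads of both pools, so its widths and enrichment values do not stand apart from those reads. The labels gave 1 donor record for all 4 libraries, so the spread between the pools may be technical, and read depth was unknown for every list.

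Neurons are built around microtubules and neurofilaments. Neurofilament proteins assemble into intermediate filaments that fill the axon and set its calibre, while microtubules, stabilised by microtubule-associated proteins, carry transport along axons and dendrites. H3K4me3 collects on the nucleosomes around the transcription starts of active genes, and broad stretches of it are known at genes that mark a cell's identity.

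A gene was called marked where a peak overlapped, by at least 1 base, the 1000 bases either side of any of its annotated transcript starts. Peaks up to 1000 bases apart were joined into a promoter domain, and a gene took its widest domain. All 10 genes were marked in the replicated list, in pool I and in pool J, where 65.2%, 64.8% and 63.9% of all protein-coding genes were marked. Their median domain width was 4459.5 bases in the replicated list, 4662.5 in pool I and 4452.5 in pool J. Over all marked protein-coding genes the medians were 2124, 2193.5 and 2026 bases in the same lists. In the replicated list 10 of 10 domains were wider than the median domain, which 50% of marked genes exceeded. With 1 list per pool no test between genes or pools was made. Since the tissue was a mixture, a narrower or weaker peak could come from fewer marked cells or from less of the mark per cell, and these cannot be told apart.

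**Figure D1:**
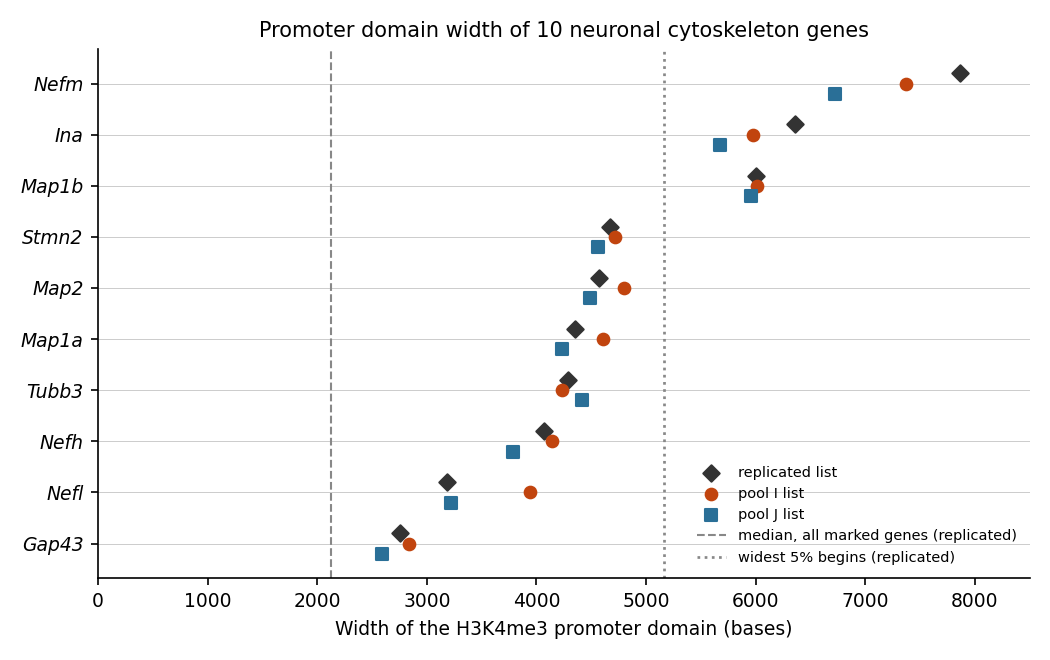
Width in bases of the H3K4me3 promoter domain of each of the 10 genes in the replicated list (diamonds), pool I (circles) and pool J (squares), with the genes ordered by width; the dashed line is the median of all marked protein-coding genes in the replicated list and the dotted line the width above which its widest 5% begin. Every symbol lies right of the dashed line at 2124 bases, and Nefm, Ina and Map1b lie right of the dotted line at 5166.4 bases in all 3 lists.

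All 10 domains ranked higher in width than in enrichment in each list. The authors give each peak an enrichment, read here as its fold over control, and the highest value in a domain served to rank genes within a list. The median enrichment of the 10 genes was 17.7 in the replicated list, 18.9 in pool I and 18.6 in pool J, against 20.6, 20.6 and 20.4 over all marked genes. In the replicated list 7 of the 10 lay below the median enrichment, which 49.9% of marked genes did, and Nefm, Map1b and Tubb3 lay above it. In pool I only Map1b and Tubb3 lay above the median of that list, and in pool J Ina, Map1a, Map1b and Tubb3 did. Each value is that of the widest domain of the gene. At Map2 a narrower domain had 28.4 in the replicated list, against 17.5 in the widest. A percentile here is the gene's rank among all marked genes of the same list. The median of the 10 width percentiles was 91.7 and that of the 10 enrichment percentiles 36.4. Among the 10 genes Spearman's rho between width and enrichment was 0.64, and over the 14293 marked genes it was 0.40, as a description over genes that share the same libraries.

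**Figure D2:**
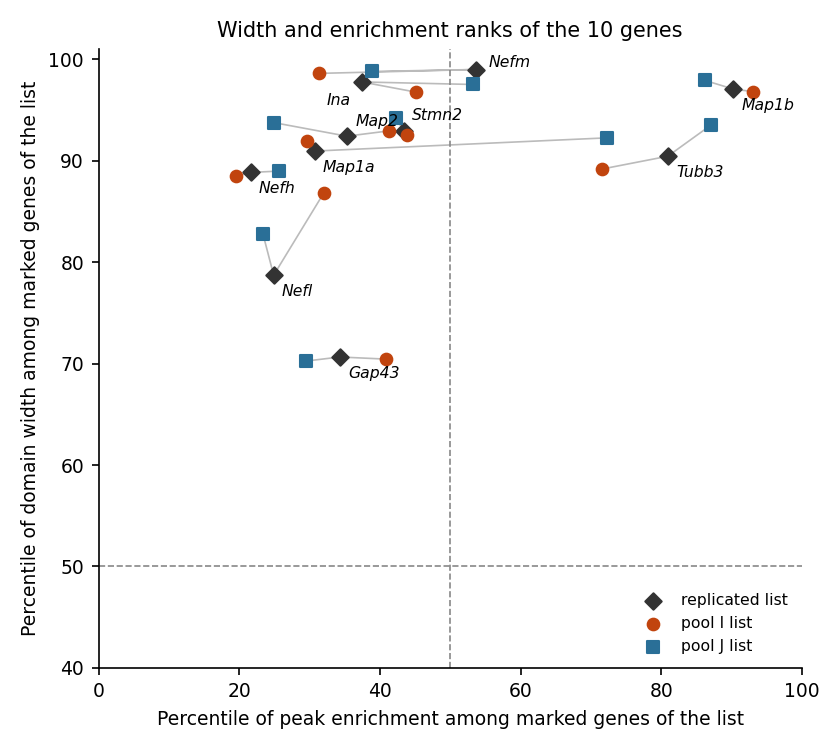
Percentile of the domain width (vertical axis, from 40 upward) against percentile of the highest peak enrichment (horizontal axis) among all marked protein-coding genes of the same list, with a line joining the 3 lists of each gene; the dashed lines mark percentile 50. All symbols lie above width percentile 70, while enrichment runs from percentile 19.6 at Nefh in pool I to 93.1 at Map1b in pool I.

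The neurofilament triplet was spread over the width range. Nefl encodes the light neurofilament subunit, which can form filaments with either of the larger ones and whose gene is mutated in forms of Charcot-Marie-Tooth disease. Its gene lies at chr14:68083863-68089095 on the plus strand of mm10, the build of all coordinates given here. The Nefl domain spanned 3180 bases in the replicated list, 3941 in pool I and 3217 in pool J, a mean of 3579 ± 512 over the pools (SD, n = 2). Pool I was the wide one because it alone held a second, weak peak of 373 bases and enrichment 3.04, whose end lay 2495 bases into the gene. The main Nefl peak was nearly the same length in the pools, with 3204 bases in pool I and 3217 in pool J. Its enrichment was 14.6 in the replicated list, 16.8 in pool I and 14.3 in pool J, at percentiles 24.9, 32.0 and 23.4.

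Nefm, the medium subunit, had the widest domain of the 10 genes in every list. It spanned 7868 bases in the replicated list, 7374 in pool I and 6724 in pool J (mean 7049 ± 460 over the pools, SD, n = 2). These widths stood at percentiles 99.0, 98.6 and 98.8. The domain held 2 peaks in each list, the main one of 6744, 6247 and 5906 bases and an outer one of 843, 851 and 376 bases. The outer peak lay upstream of the gene with its summit at -3893 bases relative to the start in the replicated list, and was weak, with enrichment 2.41 there, 2.82 in pool I and 3.03 in pool J. The main peak had 21.4, 16.6 and 18.3, so that the order of Nefm and Nefl in enrichment differed between the pools. In pool I Nefm had 16.6 and Nefl 16.8, and in pool J Nefm had 18.3 and Nefl 14.3.

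Nefh encodes the heavy subunit, whose long phosphorylated tail projects from the filament and which accumulates late as axons mature. At chr11:4938754-4948064, on the minus strand, its domain spanned 4068 bases in the replicated list, 4143 in pool I and 3789 in pool J (3966 ± 250, SD, n = 2 pools). A single peak made it up in each list. Its enrichment was the lowest of the 10 genes in the replicated list and pool I, with 13.6 and 13.4, and was 15.0 in pool J, where Nefl and Map2 were lower.

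Ina encodes alpha-internexin, which co-assembles with the triplet in central neurons and appears before it in development. Its domain, at chr19:47013271-47019625, spanned 6355 bases in the replicated list, 5974 in pool I and 5673 in pool J (5824 ± 213, SD, n = 2 pools). Enrichment was 18.0, 19.7 and 21.0. A second coding gene starts inside this domain: Nt5c2, a cytosolic nucleotidase gene on the opposite strand, whose start lay 455 bases from that of Ina. How much of the domain belonged to each gene could not be read from the peaks. The 250 bases before the Ina start are shown as an example of a CpG-rich promoter among these genes, in GRCm38 sequence from RefSeq, 5′ to 3′ along the gene, with every CpG in capitals. They held 23 CpGs.
Ina start (chr19:47014448-47014697, plus strand): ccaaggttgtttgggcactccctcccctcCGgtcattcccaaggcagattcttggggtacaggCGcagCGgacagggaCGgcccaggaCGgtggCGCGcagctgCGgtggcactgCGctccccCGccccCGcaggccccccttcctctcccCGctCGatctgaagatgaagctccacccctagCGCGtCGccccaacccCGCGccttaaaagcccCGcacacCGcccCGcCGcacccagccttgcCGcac

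The microtubule-associated protein genes had separate domains at different starts in the replicated list. Of the 10 genes, 4 had at least 2 separate promoter domains there, as did 9.45% of all marked genes. These were Map2, Map1a, Map1b and Gap43, while in pool J only Map2 and Map1a had them. The share over all marked genes was not matched for the number of distinct annotated starts. That number was 23 at Map2, 6 at Map1b, 4 at Map1a and Stmn2, and 2 at Gap43 and Tubb3. It was 1 at each of Nefl, Nefm, Nefh and Ina. Map2 encodes the main microtubule-associated protein of dendrites and is annotated with 24 transcripts at chr1:66175273-66442583. It had 3 domains. The widest stood at an internal start, chr1:66321136-66325701, and spanned 4566 bases in the replicated list, 4794 in pool I and 4486 in pool J (4640 ± 218, SD, n = 2 pools). It joined a peak of 2950 bases and one of 1356 in the replicated list, and without merging the widest Map2 domain was the 2950 bases of the larger. The merged domain at the outer, 5′-most start was narrower, with 3434, 3470 and 3430 bases, but had the higher enrichment. There the values were 28.4 in the replicated list, 26.0 in pool I and 29.7 in pool J, against 17.5, 18.9 and 14.8 at the internal start. The third domain, at chr1:66386906-66389792, was weak, with enrichment 4.99, 6.69 and 4.54 and widths of 2887, 3099 and 1919 bases.

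The Map2 starts also differed in sequence. Both stretches of 250 bases are shown to set a CpG-rich start beside a CpG-poor one of the same gene, and both lay wholly inside their domains. The outer start had 24 CpGs and 76.8% GC, the internal one 3 CpGs and 36% GC, where the median over the 21938 genes was 9 CpGs before the start of the main transcript.
Map2 outer start (chr1:66175023-66175272, plus strand): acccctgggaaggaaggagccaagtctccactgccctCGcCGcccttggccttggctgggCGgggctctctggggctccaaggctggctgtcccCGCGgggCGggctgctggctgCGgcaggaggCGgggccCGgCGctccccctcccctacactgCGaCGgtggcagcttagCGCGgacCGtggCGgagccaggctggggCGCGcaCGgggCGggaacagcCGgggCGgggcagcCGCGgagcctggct
Map2 internal start (chr1:66321469-66321718, plus strand): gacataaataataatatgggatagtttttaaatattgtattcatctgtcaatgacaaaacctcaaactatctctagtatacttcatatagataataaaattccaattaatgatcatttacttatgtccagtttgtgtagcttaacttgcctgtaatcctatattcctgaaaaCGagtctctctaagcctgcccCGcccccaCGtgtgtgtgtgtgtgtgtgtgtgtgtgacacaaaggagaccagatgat

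Map1a encodes a microtubule-associated protein that is abundant in mature neurons, and its gene spans chr2:121289600-121310832. It repeated the arrangement of Map2. The wider domain, chr2:121294136-121298488, lay at an internal start and spanned 4353 bases in the replicated list, 4608 in pool I and 4234 in pool J (4421 ± 264, SD, n = 2 pools). At the outer start the domain had 2441, 2919 and 2423 bases. Enrichment ordered the starts differently in the pools. The internal start had 16.2 in pool I and 24.7 in pool J, while the outer start had 18.2 in pool I and 14.4 in pool J, so the order of the Map1a starts is not settled by these lists. An antisense RNA, Gm14978, starts inside the wider domain, 554 bases from the internal Map1a start. The 250 bases before the outer start, shown as a second CpG-rich outer start, held 20 CpGs and 66% GC.
Map1a outer start (chr2:121289350-121289599, plus strand): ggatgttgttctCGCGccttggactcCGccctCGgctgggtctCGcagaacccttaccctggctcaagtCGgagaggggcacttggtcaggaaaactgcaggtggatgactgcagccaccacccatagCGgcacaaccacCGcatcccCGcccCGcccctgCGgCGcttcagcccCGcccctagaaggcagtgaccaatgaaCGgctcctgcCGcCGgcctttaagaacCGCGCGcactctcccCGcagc

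Map1b, a relative of Map1a that is most abundant while axons grow, combined width and height. Its domain, chr13:99511354-99517357 on the minus strand, spanned 6004 bases in the replicated list, 6013 in pool I and 5955 in pool J (5984 ± 41.0, SD, n = 2 pools), the closest pool values among the 10 genes. Enrichment was 29.4, 30.0 and 27.8, at percentiles 90.3, 93.1 and 86.2. In pool J the domain was made of 2 peaks, of 5055 and 514 bases, where pool I had a single peak. A long noncoding RNA gene on the other strand, Gm26559, starts 89 bases from Map1b and is annotated as a bidirectional promoter transcript. An internal Map1b start carried a weak peak of 462 bases in the replicated list and 955 in pool I, with enrichment 2.40 and 2.72, and no peak in pool J. The stretch before the outer Map1b start, which runs into exonic sequence of Gm26559 on the other strand, held 20 CpGs and is shown as the promoter of the most enriched of the widest domains of the 10 genes in the replicated list and pool I. In pool J, Tubb3 had 28.0 and Map1b 27.8.
Map1b start (chr13:99516541-99516790, minus strand): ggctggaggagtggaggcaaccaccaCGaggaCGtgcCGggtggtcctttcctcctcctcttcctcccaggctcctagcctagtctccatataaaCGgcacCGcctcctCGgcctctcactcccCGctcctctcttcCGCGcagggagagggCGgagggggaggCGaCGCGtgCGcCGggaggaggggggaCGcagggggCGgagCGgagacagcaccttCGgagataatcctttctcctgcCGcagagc

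Tubb3 encodes the beta-tubulin isotype used as a marker of neurons. Its domain at chr8:123410522-123414812 was a single peak of 4291 bases in the replicated list, 4236 in pool I and 4419 in pool J (4328 ± 129, SD, n = 2 pools). It was the only one of the 10 that was wider in pool J. Enrichment was 26.9, 24.7 and 28.0, at percentiles 80.9, 71.5 and 87.1, the second highest of the 10 in the replicated list. The 250 bases before its start held 11 CpGs, between the rich outer starts of Map2 and Map1a and the poor internal one of Map2.
Tubb3 start (chr8:123411174-123411423, plus strand): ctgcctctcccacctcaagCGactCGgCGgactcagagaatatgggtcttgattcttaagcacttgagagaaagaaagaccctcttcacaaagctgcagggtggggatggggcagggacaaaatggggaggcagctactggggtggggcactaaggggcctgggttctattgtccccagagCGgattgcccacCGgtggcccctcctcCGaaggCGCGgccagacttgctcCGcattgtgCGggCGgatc

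Stmn2, also called SCG10, encodes a stathmin that binds tubulin dimers in growing and regenerating axons. Its domain, chr3:8509108-8513782, spanned 4675 bases in the replicated list, 4717 in pool I and 4560 in pool J (4639 ± 111, SD, n = 2 pools), with enrichment 19.3, 19.4 and 19.0. The summit of its peak lay 2063 bases inside the gene in the replicated list, 2042 in pool I and 2155 in pool J. The summits of the other 9 genes lay 154 to 604 bases from the start in the replicated list, and the median over marked genes with 1 coding start in the domain was 214.

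Gap43 encodes a growth cone phosphoprotein attached to the membrane and had the narrowest domain of the 10 in every list. At chr16:42337926-42340682 on the minus strand, it spanned 2757 bases in the replicated list, 2836 in pool I and 2590 in pool J (2713 ± 174, SD, n = 2 pools), at percentiles 70.7, 70.4 and 70.3. Enrichment was 17.2, 18.8 and 16.0. An internal start of Gap43 had a weak peak of 352 bases in the replicated list and of 1150 in pool I. Its enrichment was 3.79 and 5.70 there, and pool J had no peak at this start.

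Of the 10 genes, 9 were wider in pool I than in pool J, as were 76.6% of the 13961 genes marked in both pools, so the members followed the general difference between the lists. Their width ratios, pool I over pool J, ran from 0.959 at Tubb3 to 1.23 at Nefl with a median of 1.08, against 1.07 over all genes marked in both. The pool domains shared a median 91.7% of their joint span, against 89.7% over all such genes. Among the widest 5% of marked genes were 3 of the 10 in the replicated list, in pool I and in pool J, each time Nefm, Ina and Map1b, where that class held 5%, 5.01% and 5% of marked genes. The widths at which this class began were 5166.4, 5301.9 and 4744.7 bases. Stmn2, the next widest in the replicated list, fell short of it in all 3 lists.

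Gene length went only loosely with domain width. Spearman's rho between width and gene length was 0.33 over the 10 genes and 0.18 over the 14293 marked genes. With the length of the main transcript it was 0.10 and 0.18. Genes were then ranked for width only within the same 1 of 10 equal classes of marked genes by length. Nefm was classed by a gene length of 42257 bases, set by a transcript that runs on through Nefl. In these classes Nefm stood at percentile 99.5, Ina at 97.7, Map1b at 96.4 and Map1a at 94.0. Stmn2 stood at 93.6, Tubb3 at 92.5 and Nefh at 91.2. Nefl, among the shorter genes, reached 82.2, Map2, among the longest, 82.4, and Gap43 61.8. These are ranks close to those over all genes for the neurofilament genes and Tubb3, and lower ones for the long genes Map2 and Gap43, whose ranks over all genes were 92.4 and 70.7.

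**Figure D3:**
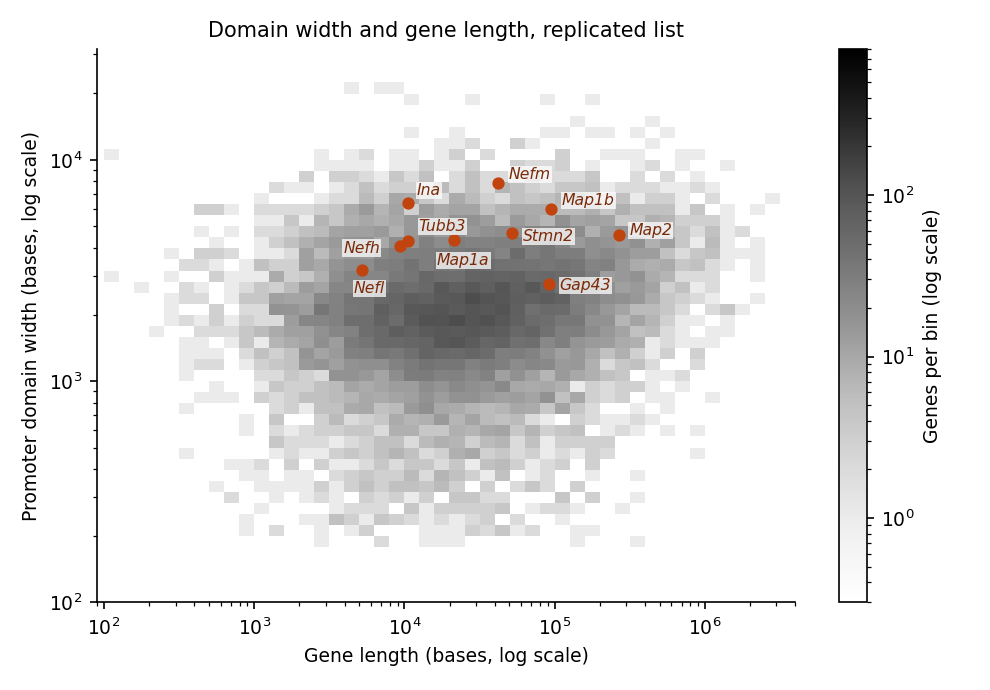
Promoter domain width against gene length, both in bases on log scales, for all marked protein-coding genes of the replicated list (grey bins, darker where more genes fall, log scale) and for the 10 genes (orange points). The points lie along the upper side of the grey cloud over gene lengths from 5233 bases at Nefl to 267311 at Map2, with Gap43 nearest its middle.

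The share of a gene that the domain covered was mostly larger in the shorter genes. The domain covered 46.4% of the Ina gene, 33.1% of Nefl, 32.0% of Tubb3, 20.5% of Map1a and 18.0% of Nefh. It covered 8.47% of Stmn2, 7.81% of Nefm, 5.45% of Map1b, 2.96% of Gap43 and 1.71% of Map2. The median was 13.2%, against 5.23% over all marked genes, both with the widest domain of each gene. The median gene length was 31745 bases for the 10 genes and 25592 over all marked genes. With the 5′-most start or the most enriched domain only, the median of the 10 genes was 8.14%. The share over all marked genes was not computed under those settings. The low value at Nefm came from a single annotated transcript that runs on through Nefl. Over its main transcript, of 5564 bases, the share was 59.3%, the highest of the 10.

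All 10 domains reached into the gene, and 8 of them further than they reached upstream. Over the 10 genes they extended a median 1110 bases upstream and 3345 bases downstream of the start, against 586 and 1399 over the 10677 marked genes with 1 coding start in the domain. Gap43 reached only 31 bases upstream in the replicated list, 54 in pool I and 5 in pool J, and 2726, 2782 and 2585 downstream. Stmn2 had 252 bases upstream and 4423 downstream in the replicated list. Map1b had the longest reach into a gene, 5187 bases in the replicated list, 5150 in pool I and 5276 in pool J.

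Nefm and Nefh were the 2 of 10 genes whose domain reached further upstream than downstream, as 8.25% of marked genes with 1 coding start did. Ina, which shares its domain, is not of that class, which leaves 9 of the 10. At Nefm the domain reached 4567 bases upstream in the replicated list, 4567 in pool I and 4265 in pool J, and 3301, 2807 and 2459 downstream. Its main peak alone reached 3443, 3440 and 3447 bases upstream, again further than downstream in all 3 lists. At Nefh the upstream reach was 2391, 2388 and 2252 bases and the downstream reach 1677, 1755 and 1537. No other annotated gene started inside either domain.

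**Figure D4:**
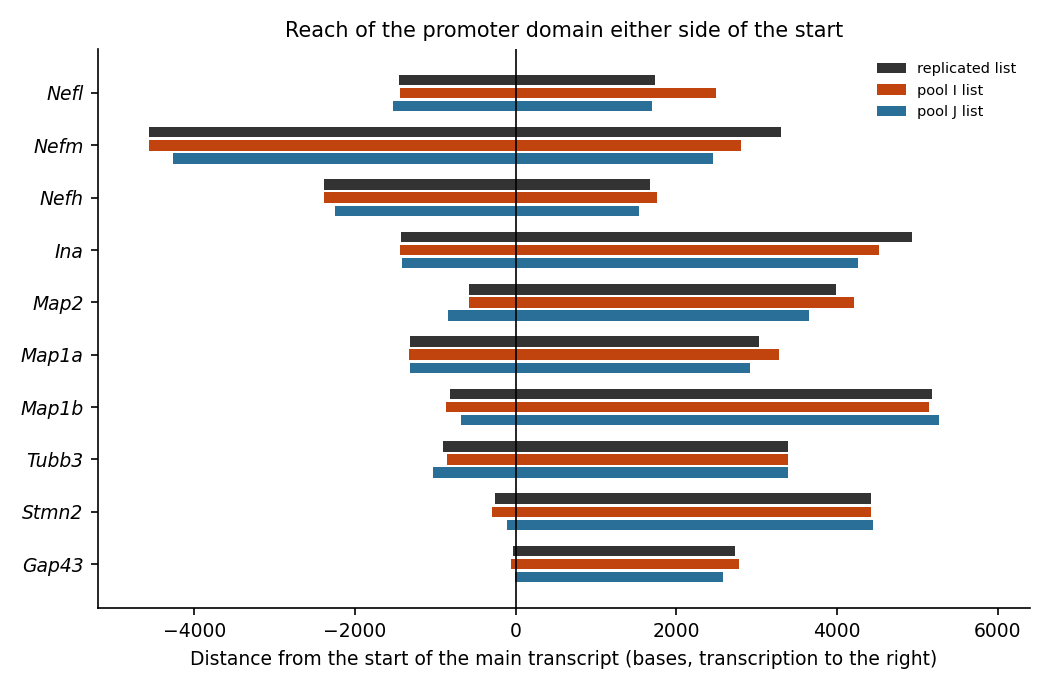
Extent of the promoter domain upstream (left of 0) and downstream (right) of the start of the main transcript, in bases, for each gene in the replicated list (black), pool I (orange) and pool J (blue). Bars of Nefm and Nefh are longer on the left than on the right, while those of Stmn2 and Gap43 lie almost wholly on the right.

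In exon terms the 10 genes were alike at exon 1 and unlike in how much exonic sequence the domain covered. The covered share of the exonic bases of the main transcript ran from 0.877% at Map1a to 37.0% at Nefm. The domain held the whole of exon 1 of the main transcript in all 10 genes, and of exon 2 as well in Nefm and Map2. The share of all marked genes whose domain holds exon 1 is not given here, so this count does not set the 10 apart. Its downstream edge fell in an intron in 10 of 10, as it did in 87% of marked genes. The first exons of the filament genes are long, with 1147 bases in Nefl, 1107 in Nefm, 1007 in Nefh and 1122 in Ina. Those of the other 6 ran from 89 bases in Map1a to 424 in Map2, and the median over all marked genes was 232.

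Nefl and Nefm are neighbours on chromosome 14 and are transcribed towards each other, so their starts lie at the outer ends of the pair, 40983 bases apart. The bases between their domains were 35953 in the replicated list, 35682 in pool I and 36833 in pool J, and no list held a peak between them. The Nefm domain was 2.47 times as wide as that of Nefl in the replicated list, 1.87 times in pool I and 2.09 times in pool J. Measured on its main transcript the domain covered 59.3%, 50.4% and 44.2% of Nefm, and 33.1%, 47.7% and 32.3% of Nefl. So Nefm was the wider of the pair in both pools, while the shares of the transcripts were close in pool I alone.

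**Figure D5:**
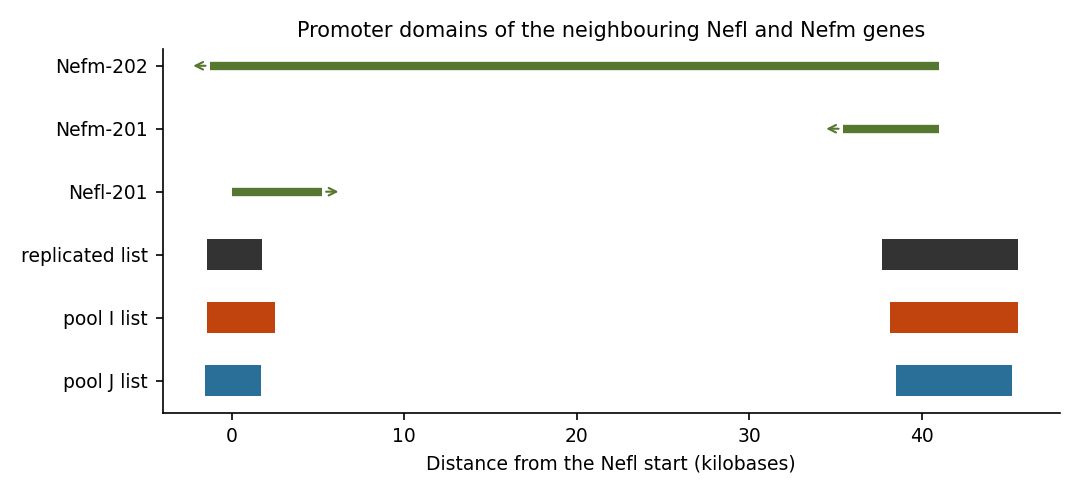
Transcripts of Nefl and Nefm (green, arrows in the direction of transcription) and their promoter domains in the replicated list, pool I and pool J, by distance in kilobases from the Nefl start. The domains sit at opposite ends of the pair with an empty stretch of 35682 to 36833 bases between them, and the Nefm domain is the wider in each list.

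The pair was set beside all 2944 pairs of neighbouring marked coding genes that are transcribed towards each other. The distance between its domains stood at percentile 28.1 of these, whose median was 69629.5 bases. Its ratio of wider to narrower domain, 2.47 in the replicated list, stood at percentile 76.2, with a median of 1.64. The pair was thus within the common range of convergent neighbours in both measures.

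At the starts of the main transcripts, CpG content was higher at the 4 filament genes than at the other 6. CpG observed over expected, in the 1000 bases either side of the start of the main transcript, compares the number of CpGs with that given by the C and G content. It was 0.913 at Ina, 0.869 at Nefl, 0.823 at Nefh and 0.768 at Nefm. It was 0.608 at Map1b and 0.519 at Tubb3, 0.402 at Gap43 and 0.339 at Stmn2, and 0.284 and 0.218 at the internal starts of Map2 and Map1a. The median was 0.563 for the 10 genes, with Map2 and Map1a taken at their internal starts, and 0.616 over all marked genes. The outer starts of Map2 and Map1a, with 24 and 20 CpGs in the 250 bases before them, did not enter this median. Where the median of the group would stand with those outer starts was not computed. Within the domains the 10 genes had a median 2.89 CpGs per 100 bases, against 4.42 over all marked genes, and in the 1000 bases beyond each edge 0.9 against 1.05. Counted over the whole domain, the median number of CpGs was 145.5, against 94.

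Among marked genes of like CpG content (the same 1 of 10 equal classes of all genes) Nefm stood at width percentile 98.9, Map1b at 98.0 and Ina at 96.5. The CpG-poor starts ranked nearly as high, with Stmn2 at 93.4, Map2 at 92.8 and Map1a at 91.4, and Tubb3 stood at 93.2. Nefl dropped to 61.3 and Nefh to 81.3, since the median domain in their class was 2850 bases. Gap43 stood at 81.7, higher than over all genes.

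Promoter motifs were counted on both strands of the 250 bases before the starts shown, and the share of all 21938 genes with the motif before the start of the main transcript is given beside each. The GC box GGGCGG, held by 42.1% of genes, occurred in all 6 stretches, 5 times before the outer Map2 start and 4 times before the outer Map1a start. The TATA box TATAAA, held by 11.2%, occurred only before Map1b. The CCAAT box, held by 35.7%, occurred once before the outer Map1a start and once before the internal Map2 start. The cyclic AMP response element TGACGTCA, held by 2.09%, and the left arm of the RE1 element, TTCAGCACC, held by 0.273%, had no match in these windows. A match is a string of letters and not a bound site.

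Peaks beyond the promoter domains are described for the 10 genes alone, without a share over all marked genes. Inside the gene, beyond any promoter domain, the replicated list had no peak at Nefl, Nefh, Ina, Map1a, Tubb3 or Stmn2. Map2 had 1, of 493 bases in the replicated list, 544 in pool I and 493 in pool J, and Map1b had 1 of 295 bases there and 1 of 397 in pool I, with none in pool J. Gap43 had 2 peaks in the replicated list and pool I and 1 in pool J, the widest of 597, 589 and 650 bases. The peak inside the long Nefm transcript was that of Nefl. In the 50000 bases upstream, Nefl had a single peak of 955 bases in the replicated list, 980 in pool I and 891 in pool J, with enrichment 9.79, 10.4 and 8.91, while Nefm, Map2 and Stmn2 had none in any of the 3 lists. Stronger peaks lay upstream of Tubb3, Map1a and Nefh. The widest upstream of Tubb3 had 2555, 2926 and 2189 bases, with enrichment 30.1, 30.5 and 27.5, and that of Nefh had 1795, 1804 and 1743 bases, with 20.9, 18.5 and 22.0. Upstream of Map1a the widest peak had 2392, 2480 and 1754 bases, and the highest enrichment was 22.4, 23.0 and 22.0. Whether these peaks belong to neighbouring genes was not tested. Ina, Map1b and Gap43 had only peaks of at most 443 bases upstream, each missing from at least 1 list.

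Other genes of the neuronal and general cytoskeleton were taken from 7 lists by family. Of 78 such genes 72 were marked in the replicated list, with a median width of 3130 bases, and 15 of these, or 20.8%, were among the widest 5% of marked genes. Of 16 tubulin genes listed, 13 were marked, with a median of 2538 bases and none in the widest 5%. The widest were Tuba1a, the main neuronal alpha-tubulin, with 4570 bases, against 4051 in pool I and 4040 in pool J, and Tubb5 with 3699, against 3606 and 2140. Tubb3 was wider than Tuba1a in both pools and narrower in the replicated list, while Tuba4a, with 3049 bases in the replicated list, 4621 in pool I and 3094 in pool J, was wider than Tubb3 in pool I alone. The narrowest was Tubg2, a gamma-tubulin, with 965. Tuba3a and Tuba3b, testis alpha-tubulins, and Tubb1, the beta-tubulin of platelets, had no promoter peak.

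Intermediate filament genes outside the members overlapped with them in width. Of 11 other intermediate filament genes 8 were marked, with a median of 1933.5 bases and none in the widest 5%. Lmna, a nuclear lamin gene, had 3556 bases in the replicated list, 3547 in pool I and 2975 in pool J. It was wider than Nefl, with 3180, in the replicated list and narrower in both pools, where Nefl had 3941 and 3217. In the replicated list Vim, the filament of mesenchymal and glial cells, had 3170 bases, and Bfsp1, a lens filament gene, 707. Gfap of astrocytes, Des of muscle and Bfsp2 of lens had no promoter peak. Prph, the filament of peripheral neurons, had a domain of 734 bases with enrichment 5.18.

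The remaining microtubule lists were marked throughout. All 19 other microtubule-associated protein genes were marked, with a median of 3624 bases and 4 in the widest 5%, led by Dclk1 with 6965 and Map6 with 6100, while Map10 had 1111. The 3 other stathmin genes had 5313 bases at Stmn4, 4030 at Stmn1 and 3233 at Stmn3, with Stmn4 in the widest 5%. All 11 motor genes were marked, with a median of 2994 bases and 2 in the widest 5%, the kinesin genes Kif1b and Kif5a, while Kif3b had 2002. Kif1b had 5572 bases in the replicated list, 3524 in pool I and 5038 in pool J, and Kif5a had 5433, 5525 and 3641, so the pools differed by over 1000 bases at each.

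The list of growth cone and membrane phosphoproteins and that of spectrins and ankyrins had the highest median widths of the 7 lists. The growth cone list, of 9 genes, had a median of 6013 bases in the replicated list. In pool I its median was 6083 and in pool J 4883. Of these 9 genes 5 were in the widest 5% in the replicated list, where Gap43 had 2757 bases. Nrgn, which encodes the postsynaptic calmodulin-binding protein neurogranin, had 8917 bases in the replicated list, 8727 in pool I and 4883 in pool J. Basp1 had 7924 in the replicated list, and Marcksl1, the narrowest, 1320. The list of 8 spectrin and ankyrin genes, which link actin to the membrane, and their adhesion partner Nfasc had a median of 4465 with 3 in the widest 5%, Sptbn1 with 6270 and Sptan1 with 5853, and Ank1 had 2336. These counts describe the lists, which were chosen with earlier results of these data known.

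Marker genes of cell types were looked up in the same lists. All 5 excitatory neuron markers were marked in the replicated list, with a median domain of 12141 bases there, 8793 in pool I and 7493 in pool J, as were all 5 of inhibitory neurons, 4 of 5 of astrocytes, 3 of 3 of oligodendrocyte precursors and 4 of 4 of endothelium. Microglial genes were marked at 3 of 5, at 2 in pool I and at 0 in pool J. Choroid plexus genes were marked at 1 of 3 and peripheral nerve genes at 2 of 3. Over all protein-coding genes 65.2% were marked in the replicated list, 64.8% in pool I and 63.9% in pool J. The replicated counts for microglia and peripheral nerve were near that share, and such short lists do not settle which cell types were present. The 3 microglial domains of the replicated list had 198, 211 and 875 bases and enrichment of at most 3.13. Gfap, P2ry12, C1qa, Ttr, Folr1 and Pmp2 had no replicated promoter peak. Median enrichment in the replicated list was 19.3 for the excitatory and 6.10 for the inhibitory markers and 3.13 for those of microglia. It was 16.7 for peripheral nerve, 13.6 for astrocytes, 6.57 for choroid plexus, 5.47 for endothelium and 5.38 for oligodendrocyte precursors. Median widths there were 4294 bases for precursors, 4163.5 for astrocytes, 3205.5 for endothelium and 2093 for inhibitory neurons. They were 1374 for peripheral nerve, 1165 for choroid plexus and 211 for microglia. The part of cell composition in the widths above was not tested.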

How the data were processed

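H3K4me3 ChIP-seq of left cerebral cortex was analysed from 3 of 4 peak lists, with the list called on pooled reads as an alternative. Peak positions are in bases on mm10, as deposited, counted from 1 here. The authors' enrichment value is a ratio, read as fold over control because the notes deposited with the libraries list tracks of that kind. The deposited −log10 q values served as filters in alternatives, and the deposited display score and p-values were not used. The aligner, peak caller and read depth are not stated in these sources. Gene models were GENCODE M21, without the mitochondrial genome, and the main transcript was the longest in the CCDS set, where the gene had one, that started within 1000 bases of its widest domain. Domains, ranks and CpG content were computed in Python 3.11.15 with numpy 2.4.6 and scipy 1.17.1, and tested on simulated data. Sequences were read from the RefSeq GRCm38 genome for the 5 of 10 members found in the RefSeq promoter table, namely Ina, Map2, Map1a, Map1b and Tubb3. No test was made, since there was 1 list per pool. Named genes were the 10 members, the widest 2, the narrowest and up to 3 unmarked genes of each list, any gene starting in a member's domain, and unmarked cell type markers. The oligodendrocyte markers and 1 start sequence are not reported here. Prph, Tuba4a and Nfasc were added after their values were seen. The members and lists were chosen with earlier results of these data known. Alternatives changed the list, start window, merging distance, q filter, choice of start and gene span.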

Additional observations from a re-analysis of the deposited data

How the results depend on the processing

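All 10 genes were marked under each of the 13 alternatives, and 3 lay among the widest 5%, or 4 when peaks were not merged. The median width was 4662.5 bases in pool I alone and 4452.5 in pool J alone, and 4322 without merging. It was 4179.5 bases both with the 5′-most start only and with the domain of highest enrichment, where Map2 and Map1a take their narrower outer domain. The median share of the gene covered was 8.14% under those 2 settings and 19.9% over the main transcript, a setting chosen after seeing the data. The bases between the Nefl and Nefm domains ran from 35682 to 36833 between the pool lists. Of 130 recomputed widths of single genes, 112 moved by at most 1 SD of the pools and 18 by more. Many of the 112 did not move at all, since the pooled reads list, both other start windows and other settings left every width unchanged. The SD came from the pool lists, which are themselves among the settings, so this tally is a weak measure of stability. Map2 ranged from 2950 to 4794 bases and Map1a from 2441 to 4608. No paired analysis was possible because each pool gave 1 peak list and no test was made. Depth was unknown, so a missing weak peak, as in pool J at the internal starts of Map1b and Gap43, may lie below detection.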
